A study of Mus musculus with 2 samples.

Results

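The keratin gene family was read out in the ureter of mouse embryos at E16.5, on 2 arrays that each set a pool of Pparg-cKO ureters against a pool of control ureters. The members were all array rows whose gene name begins with Krt followed by a digit. These were 68 of 39429 probe rows, and they covered 52 of the 29982 genes with a value on both arrays. The family comprised 28 type I and 24 type II genes. On both arrays, 34 of the 52 genes stood well above the local background in at least 1 of the RNAs, the same RNA each time.

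Keratins are the intermediate filament proteins of epithelial cells. Each filament pairs an acidic type I chain with a basic type II chain, and the pair in use differs between epithelia and between the layers of a single epithelium. In the urothelium, the stratified lining of ureter and bladder, Krt8, Krt18, Krt7 and Krt19 are found broadly. Krt5 marks basal cells next to the lamina propria, Krt14 a small subset of basal cells, and Krt20 the superficial cells that face the lumen. Krt6a, Krt6b, Krt16 and Krt17 are known from wounded and hyperproliferative epithelia and from skin appendages, Krt4 and Krt13 from the upper layers of wet mucosae, Krt1 and Krt10 from cornifying epidermis, and a large set from hair and its sheaths.

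The control pools had the genotype Pparg(fl/?) and the mutant pools Pax2-cre/+; Pparg(fl/fl), all on NMRI. Pparg encodes a nuclear receptor for lipid ligands. Pax2-cre acts in the nephric duct and its derivatives, which include the ureteric epithelium and the collecting ducts. Replicate 1 (array 1) held female pools and replicate 2 (array 2) male pools, each pool was made from several ureters, and the dyes were exchanged between the arrays. The embryonic stage entered for the mutant channels differs from that in the titles and dissection notes, which give E16.5.

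The genotype of each channel could not be settled. The labels assign the red dye (AlexaFluor647) to control on array 1 and to Pparg-cKO on array 2, whereas the direction in the study's text requires the reverse. RNA A is therefore the RNA that was red on array 1 and green on array 2, and RNA B its partner. RNA A was control by the labels and Pparg-cKO by the study's text, and these 2 readings oppose each other for every signed value given here. All ratios are log2 of RNA A over RNA B, and a positive ratio means brighter in RNA A. Pparg itself was brighter in RNA A, with a processed signal of 11295 against 7430 on array 1 and 12888 against 7872 on array 2. Its probe begins at base 1562 of the transcript and was not shown to lie in the floxed exons, so it checks neither reading. The study also stained sections for RNA, a separate assay from the arrays, and describes less Krt20 and Upk1a in mutant ureters, which is the direction under which RNA A is Pparg-cKO. The study also describes the proteins UPK1B and UPK2 in luminal cells of control but not of mutant ureters at E16.5. The authors' signed fold changes, for samples titled Pparg-cKO vs control, correlated with the ratios of RNA A over RNA B (Pearson's r = 0.972 on array 1 and 0.956 on array 2). Read as mutant over control, they give the same direction. The labels were not overridden by these, and both readings are kept. The sex of the pools and the dyes were exchanged at the same time and cannot be told apart.

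Several keratin probes cannot be assigned to 1 gene by the accessions listed for them, and some resemble probes of other keratins. The probe rows are DNA oligonucleotides of 60 bases. In each pair below the longest stretch that the probes share is in capitals, written 5′ to 3′. The first pair comes from the coding part of Krt6b and Krt5 on mouse chromosome 15, at chr15:101509450-101509509 and chr15:101542056-101542115 of mm9 (minus strand):
Krt6b: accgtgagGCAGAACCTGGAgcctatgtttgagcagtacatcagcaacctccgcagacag
Krt5: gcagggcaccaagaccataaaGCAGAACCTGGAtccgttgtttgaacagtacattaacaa
Aligned on the shared 12 bases, 38 of 47 bases are identical. The Krt5 probe is listed for Krt5 only. The accessions that the array design lists for the Krt6b probe belong to Krt6a as well as Krt6b, so its signal may come from either transcript. The second pair belongs to the hair keratins Krt81 and Krt83, at chr15:101290583-101290642 and chr15:101263556-101263615 (mm9, minus strand):
Krt81: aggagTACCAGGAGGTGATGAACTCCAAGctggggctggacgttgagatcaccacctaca
Krt83: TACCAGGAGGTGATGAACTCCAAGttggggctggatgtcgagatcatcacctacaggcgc
They share 24 bases in a row, and 51 of the 55 aligned bases are identical. The Krt81 probe is listed for Krt81, Krt83 and Krt86, while the Krt83 probe carries the accessions of Krt83 and Krt87. The brighter Krt222 probe shares at least 20 bases in a row with 25 other probes of the array, so its signal was not taken as a reading of Krt222. The Krt78 probes overlap by 50 bases and are not separate measurements.

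Of the 52 keratins, 2 passed a filter with the study's thresholds as brighter in RNA A (Krt4 and Krt6a) and 1 as brighter in RNA B (Krt20). The filter was applied here to processed signals averaged over the spots of 1 probe per gene. The study's own list of genes increased at both fetal stages also names Krt6b. Its signals here, 57.4 and 95.7 in RNA A, were too low to pass. A gene passes the filter where both arrays differ by 1.5-fold or more in 1 direction and the brighter RNA reaches a signal of 100 on each, and no p-value is given. Over all 29982 genes it passed 0.157% in RNA A and 0.23% in RNA B. Another keratin, Krt16, went past 1.5-fold in opposite directions on the arrays, as did 0.43% of all genes. The limma test, which shares the estimate of spread over the 21429 genes well above background, called 2 of 34 keratins in RNA A, Krt6a and Krt6b, and 0 in RNA B (Benjamini-Hochberg adjusted p under 0.05; at an unadjusted p under 0.05, 11 and 2, next to 1.68% and 2.1% of all genes tested). Over all genes tested, its calls made up 0.126% on the side of RNA A and 0.187% on that of RNA B. With 2 arrays the precision is limited, and the pools are 1 per genotype and sex, so the spread is that between these arrays alone.

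**Figure D1:**
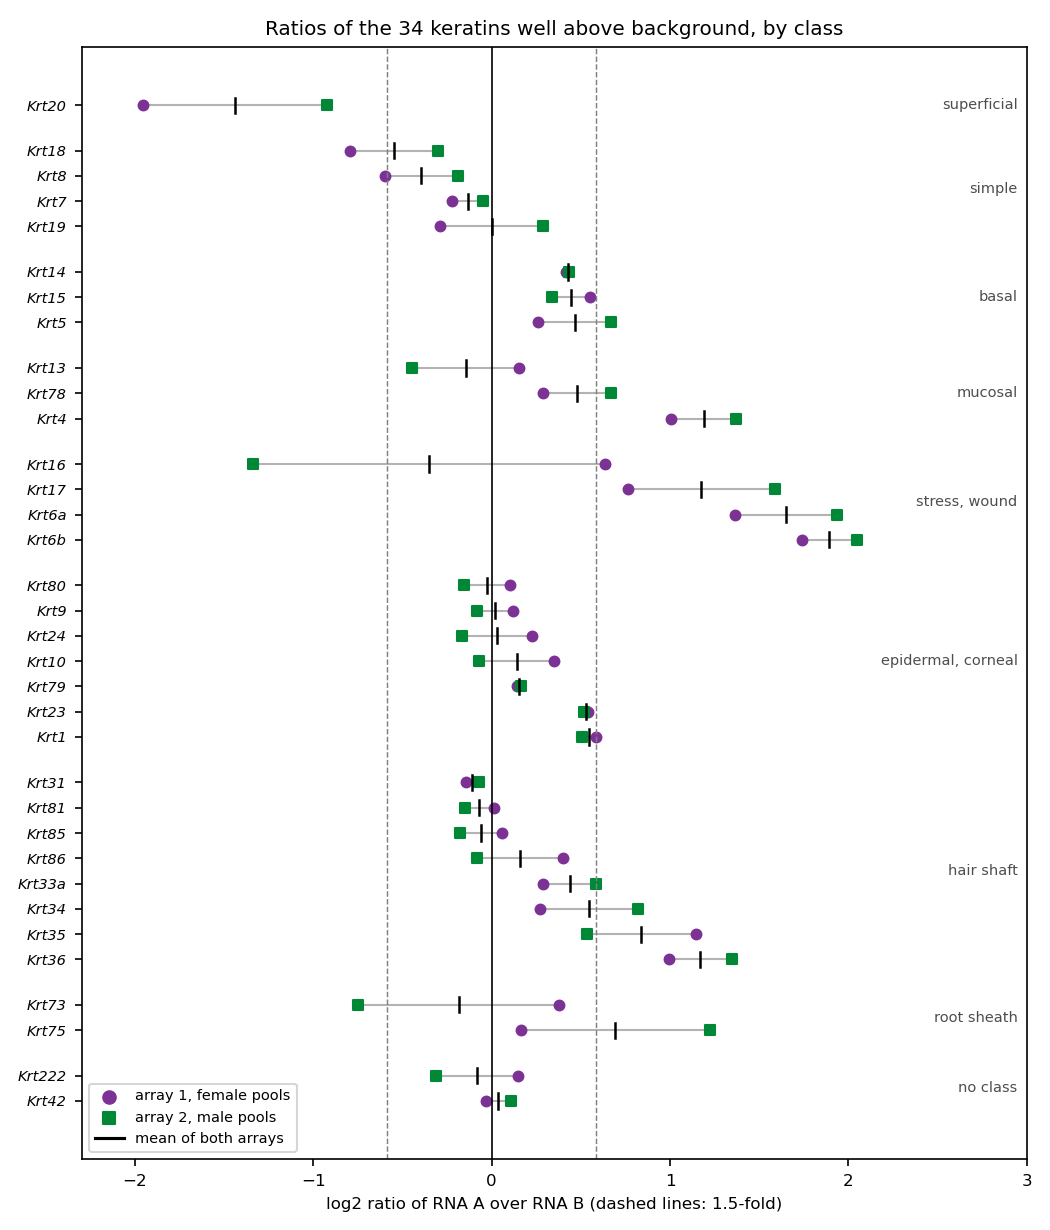
Log2 ratio of RNA A over RNA B (x axis) for each of the 34 keratins well above background (y axis), grouped by class; circles are array 1, squares array 2, black ticks their mean (n = 2 arrays). Krt20 stands at the left with ratios of -1.96 and -0.92, while Krt6b, Krt6a, Krt4, Krt36 and Krt17 lie to the right of the 1.5-fold line on both arrays.

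Krt20, the type I keratin of superficial urothelial cells, was the keratin with the lowest mean ratio among those tested. Its processed signal was 138 in RNA A against 535 in RNA B on array 1, then 276 against 524 on array 2. RNA B gave nearly the same signal on both arrays, and RNA A was lower and differed more between them. The log2 ratios, -1.96 and -0.92, had a mean of -1.44 ± 0.73 (SD, n = 2 arrays) or 2.71-fold, and the limma adjusted p of 0.0985 missed the threshold. The SD of the log2 ratio over the spots of the probe was 0.12 and 0.027, which covers the spread within a hybridisation and not that between pools.

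The uroplakins, membrane proteins of the same superficial cells, lay on the same side. On both arrays 5 of 5 were brighter in RNA B, as were 17.4% of all genes tested, and their median log2 ratio was -0.71, against 0.0067 over all genes tested. Upk1a gave 4545 in RNA A against 12126 in RNA B on array 1, then 4915 against 11472 on array 2. Its mean ratio of -1.32 was called by limma (adjusted p = 0.0451). Whether fewer superficial cells or less of these RNAs per cell gave the lower signal cannot be told apart in RNA of whole ureters.

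The promoter of Krt20 is shown because Krt20 is the keratin that passed the filter in RNA B. The 100 bases before its start site (RefSeq, GRCm38.p6, chr11:99438154-99438253, minus strand, 5′ to 3′) hold a TATA box, TATAAA, directly followed by AGGTCA, the half-site that nuclear receptors bind, and both are in capitals:
Krt20 promoter: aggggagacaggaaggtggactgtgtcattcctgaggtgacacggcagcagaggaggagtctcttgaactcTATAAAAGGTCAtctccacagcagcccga
Both strands of 32851 promoters were searched from 250 bases before to 50 after the start. AGGTCA was present in 16.3% of them and in 10 of the 36 keratin promoters that the table holds, and TATAAA in 13.6% and in 19 of 36. A match of these letters describes the sequence and shows no binding.

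The simple epithelial keratins had ratios closer to 0 than Krt20. Krt18, the type I partner of Krt8, gave 14986 in RNA A against 25948 in RNA B on array 1, then 20010 against 24679 on array 2. Its log2 ratio was -0.79 and -0.30, a mean of -0.55 ± 0.35 (SD, n = 2 arrays). Krt8 was measured by 2 probes that do not overlap. The coding probe gave 10369 against 13768 on array 1 and 11114 against 14559 on array 2, and its ratios of -0.41 and -0.39 lay close together. The probe nearer the 3′ end gave 24148 against 36566 and 29367 against 33531, with ratios of -0.60 and -0.19. The mean ratios of the Krt8 probes, -0.40 and -0.39, thus differed by less than the arrays did for the 3′ probe. Krt8 and Krt18 were dimmer in RNA A on both arrays.

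Krt7 gave 2736 in RNA A against 3188 in RNA B on array 1, then 3736 against 3859 on array 2, with a mean log2 ratio of -0.13. Krt19 gave 12070 and 14743 on array 1, then 17127 against 14003 on array 2. Its ratios of -0.29 and 0.29 had opposite signs, and their mean was 0.001. As a group, 3 of the 4 simple keratins were on both arrays brighter in RNA B, as were 17.4% of all genes tested. The median log2 ratio of the 4 was -0.26, and none passed the filter or the limma test. At an unadjusted limma p under 0.05, 1 of 4, Krt18, was on the side of RNA B, next to 2.1% of all genes tested.

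The 6 pan-epithelial markers Cdh1, Epcam, Cldn4, Cldn7, Esrp1 and Grhl2, which follow the share of epithelium in the RNA, had opposite signs on the arrays in 6 of 6 cases and a median ratio of -0.16. Opposite signs were the usual outcome on these arrays, with 61% of all genes tested. The summed signal of the 6 markers was 15070 in RNA A against 16070 in RNA B on array 1, then 15210 against 17060 on array 2. These sums rest in part on Esrp1, which had 1 kept spot per array and gave 4632 against 3186, then 2532 against 5053. Cdh1, with 4 spots on each array, gave 4323 against 6498, then 5935 against 5330. The part of these differences in the keratin ratios was not tested.

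The basal keratins were all brighter in RNA A on both arrays, as were 21.6% of all genes tested, with small differences. Krt5, the type II basal keratin, gave 939 in RNA A against 783 in RNA B on array 1, then 1029 against 646 on array 2. The mean of its log2 ratios was 0.47 ± 0.29 (SD, n = 2 arrays). Its second, coding probe shown above gave signals of 18.7 and 10.8, then 20.1 and 14.8, with a mean ratio of 0.62. Krt14, its type I partner, gave 424 against 317 and 410 against 303, and its ratios of 0.42 and 0.44 were nearly equal. Krt15, another type I keratin of basal cells, gave 1963 against 1341 and 1923 against 1521, with ratios of 0.55 and 0.34. None of the 3 passed the filter or the limma test (adjusted p = 1 for each), and 0 of 3 had an unadjusted p under 0.05.

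**Figure D2:**
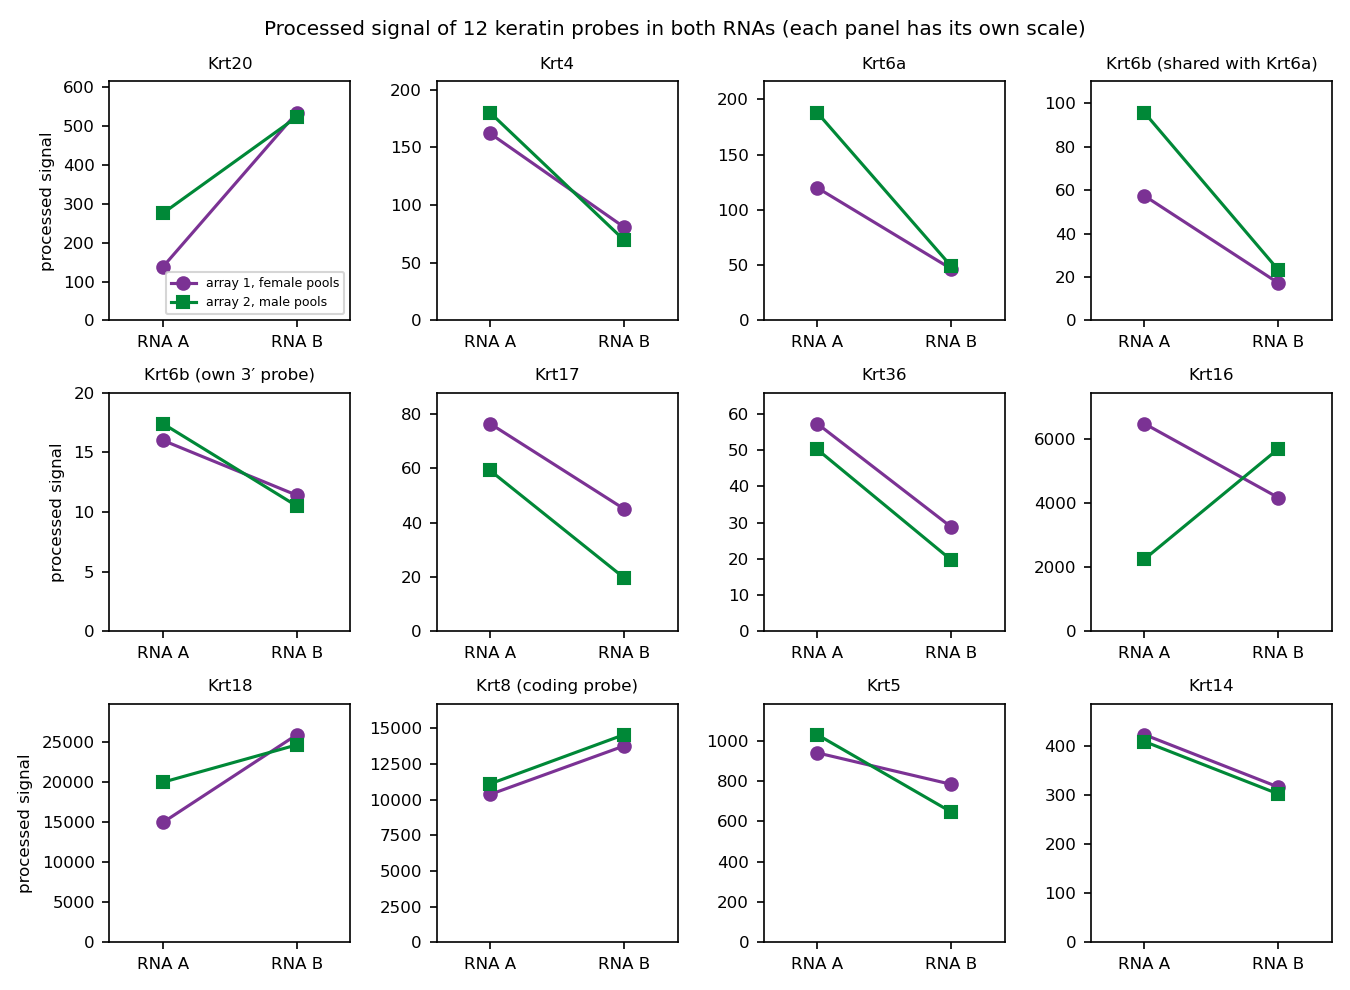
Processed signal (y axis, linear, from 0, with a scale of its own in each panel) of 12 keratin probes in RNA A and RNA B; circles are array 1 and squares array 2, and each line joins the RNAs of 1 array. The lines run up from A to B for Krt20, Krt18 and Krt8, down for Krt4, Krt6a, Krt6b, Krt17, Krt36, Krt5 and Krt14, and cross for Krt16.

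Krt4, a type II keratin of mucosal suprabasal layers, was brighter in RNA A. Its signal was 162 in RNA A against 80.8 in RNA B on array 1, then 180 against 69.6 on array 2. The log2 ratios of 1.01 and 1.37 gave a mean of 1.19 ± 0.26 (SD, n = 2 arrays), or 2.28-fold. The limma adjusted p of 0.0861 missed the threshold. The probe, from the coding part, spans 579 bases of chr15:101750158-101750736 (mm9, minus strand) and thus crosses an intron, so that it reads spliced RNA:
Krt4: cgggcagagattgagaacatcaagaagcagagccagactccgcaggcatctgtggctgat

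Krt13, the usual type I partner of Krt4, had ratios of opposite sign on the arrays. Its brighter probe gave 1190 in RNA A against 1071 in RNA B on array 1, then 1209 against 1645 on array 2, with ratios of 0.15 and -0.44. The other probe gave 47.4 against 40.1 and 19.7 against 23.7, with ratios of 0.24 and -0.27. Both probes thus turned sign between the arrays. Krt78, a type II keratin of stratified epithelia, gave a mean ratio of 0.48 by each of its overlapping probes. Krt76, known from palate and tongue, was at background in all 4 channels.

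Krt6a had the largest difference of any keratin with a probe of its own. It gave 120 in RNA A against 46.7 in RNA B on array 1, then 188 against 49.0 on array 2. RNA B was nearly the same on both arrays and both RNA A values lay above it. The log2 ratio was 1.36 and 1.94, a mean of 1.65 ± 0.41 (SD, n = 2 arrays) or 3.14-fold, and limma called it (adjusted p = 0.0297). The call was lost with loess on the processed signals (limma adjusted p = 0.0534), with normexp and loess (0.149), with separate channels (0.593), with the authors' table (0.932) and without the filter on dim probes (1). With a signal of 200 in place of 100 neither Krt6a nor Krt4 passed the filter.

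Krt6b was called by limma too, but through the probe that is also listed for Krt6a. That probe gave 57.4 in RNA A against 17.2 in RNA B on array 1, then 95.7 against 23.2 on array 2, a mean ratio of 1.89 ± 0.22 (SD, n = 2 arrays), with a limma adjusted p of 0.0138. With normexp and loess the mean was 1.23 and the call was lost (limma adjusted p = 0.135). The probe near the 3′ end of Krt6b, which is listed for Krt6b only, gave 16 against 11.4 on array 1 and 17.4 against 10.5 on array 2. Its mean ratio was 0.62, or 1.53-fold. With that probe standing for Krt6b the limma adjusted p was 0.76, and the keratins called by limma in RNA A went from 2 to 1. The call for Krt6b thus rests on the probe that is also listed for Krt6a.

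Krt17, a type I keratin of basal and appendage cells that pairs with Krt6 proteins, gave 76.3 in RNA A against 45.0 in RNA B on array 1, then 59.1 against 19.7 on array 2. The ratios were 0.76 and 1.59, a mean of 1.17 ± 0.58 (SD, n = 2 arrays) or 2.26-fold, with a limma adjusted p of 0.157. It stayed outside the filter because its signals were below 100. With a signal of at least 50, or well above background, in place of 100, Krt6b, Krt17 and Krt36 joined Krt4 and Krt6a, which gave 5 keratins in RNA A and left Krt20 as the one in RNA B.

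Krt16, the other type I partner of Krt6, had ratios of opposite sign. It gave 6482 in RNA A against 4172 in RNA B on array 1, then 2255 against 5699 on array 2, so that the RNA labelled red was brighter both times. The log2 ratios were 0.64 and -1.34, with an SD over the spots of the probe of 0.098 and 0.06; spots share a hybridisation, and their spread does not cover that between pools. Krt73, a root sheath keratin, did the same below the threshold, with ratios of 0.38 and -0.75. Of the 129 genes past 1.5-fold in opposite directions, 89 were brighter in red and 40 in green. The mean ratio of Krt16, -0.35, thus describes neither array, and it has no settled direction.

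**Figure D3:**
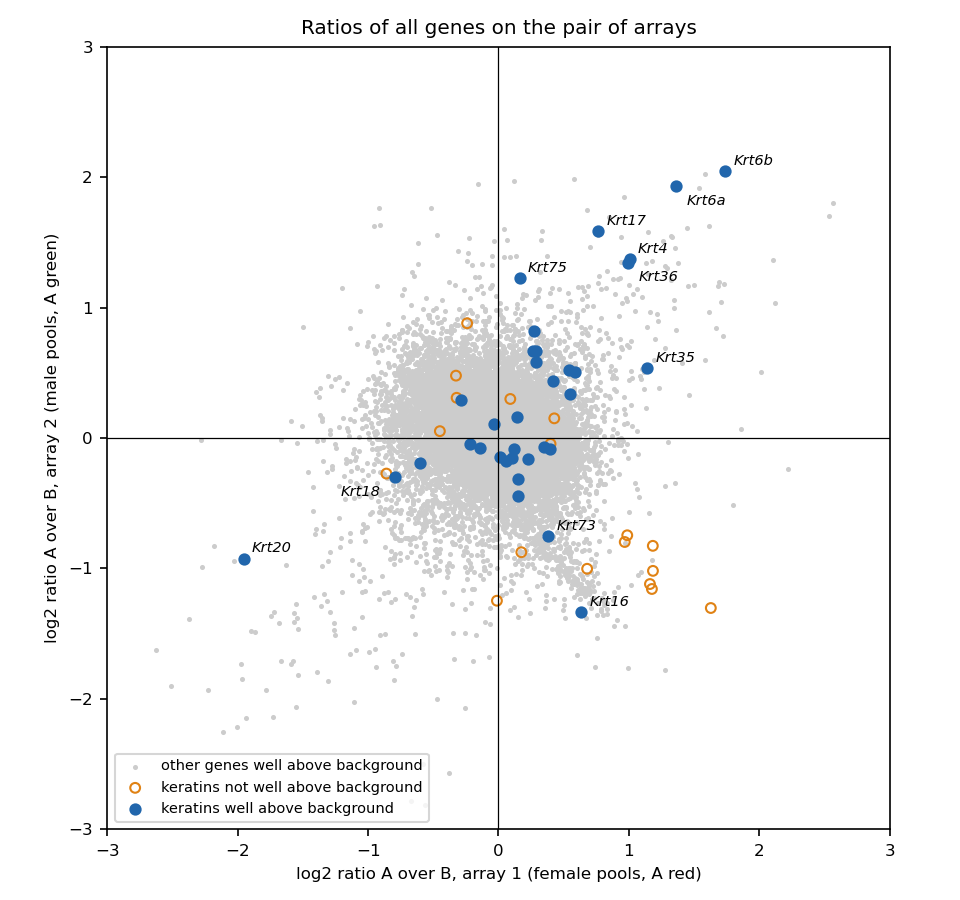
Log2 ratio of RNA A over RNA B on array 1 (x axis) and array 2 (y axis). Grey points are the other genes well above background, filled circles the 34 keratins of that kind and open circles the 18 that were not; 8 genes with a ratio beyond 3 lie outside the axes. Krt6a, Krt6b, Krt4, Krt36 and Krt17 lie at the upper right, Krt20 at the lower left, and Krt16 at the lower right, with a positive ratio on array 1 and a negative one on array 2.

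Across the 34 keratins the ratios of the arrays ran together, with Pearson's r = 0.653 and Spearman's rho = 0.596 over genes. Over all 21429 genes tested these were -0.0547 and -0.249. Genes are not independent replicates, and all points share the same 2 arrays. On both arrays 16 of the 34 keratins (47.1%) were brighter in RNA A, against 21.6% of all genes tested, and 5 of 34 (14.7%) in RNA B, against 17.4%. The remaining 13 had opposite signs, with the red label brighter in 11 and the green in 2. The median log2 ratio of the keratins was 0.15. The majority of means, 26 of 34, were below 1.5-fold.

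Krt1 and a probe of Krt10 differed more between the arrays than between the RNAs. Krt1, the type II keratin of cornifying epidermis, gave 1310 in RNA A against 874 in RNA B on array 1 but 241 and 170 on array 2. After the channels were scaled between the arrays, its level was 5.69-fold higher on array 1, the array of female pools. Krt10, its type I partner, gave 604 and 385 on array 1, then 121 against 94.1 on array 2 by its coding probe, a 4.85-fold difference. The other Krt10 probe gave 2464 and 1934, then 1396 and 1464, which is 1.63-fold. Krt77, also epidermal, was well above background on array 1 and on neither channel of array 2. The other tested members of the epidermal and corneal class did not stand apart in this way: the level on array 1 over array 2 was 1.27-fold for Krt9, 0.938-fold for Krt24, 0.869-fold for Krt79, 1.04-fold for Krt80 and 0.815-fold for Krt23.

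Loricrin, the main protein of the cornified envelope, moved with them. Lor gave 3418 and 3081 on array 1, then 429 against 555 on array 2, a 7.14-fold difference, and Lce1a1, another envelope gene, differed 2.85-fold. Ivl, which is found in other stratified epithelia as well, was at 0.912-fold. Only 23 of the 21429 genes tested (0.107%) had a level over 4-fold higher on array 1. The other tested keratin probes lay between 0.689-fold and 2.07-fold. Whether this goes with the sex, the dissection or another difference between the arrays was not tested.

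Within each array the ratio of Krt1 was 0.58 and 0.51, and that of Krt10 0.65 and 0.37 by the coding probe and 0.35 and -0.07 by the other. Krt23, an epithelial type I keratin, gave 1432 against 985 and 1878 against 1310, with nearly equal ratios of 0.54 and 0.52. Krt9, Krt24, Krt79 and Krt80 had mean ratios between -0.02 and 0.15. Krt2 and Krt12 were not tested because neither RNA A nor RNA B was well above background on both arrays.

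**Figure D4:**
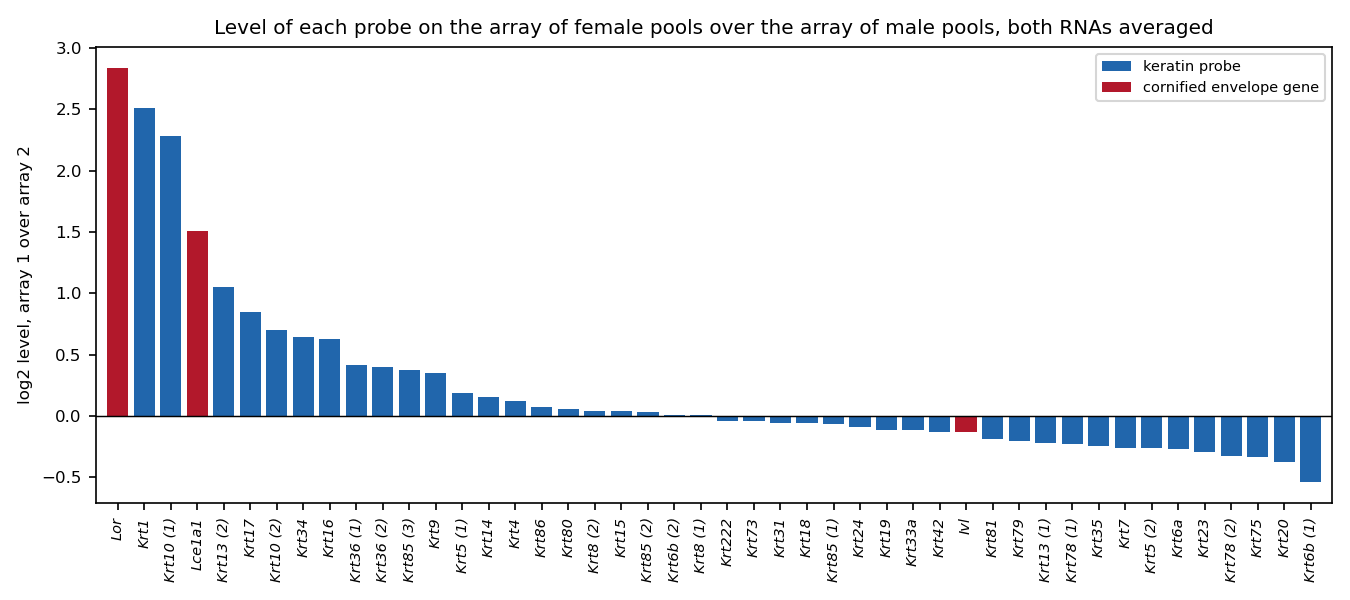
Log2 level on array 1 (female pools) over array 2 (male pools), with both RNAs averaged after scaling, for the 43 tested keratin probes (blue) and 3 cornified envelope genes (red); numbers in brackets tell probes of the same gene apart. Lor, Krt1 and a Krt10 probe stand at the left with 7.14-fold, 5.69-fold and 4.85-fold, and Krt20 and Krt6b at the right end.

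Hair and root sheath keratins were mostly at the limit of detection. Of the 15 hair shaft genes on the arrays 8 were tested, and of the 9 inner root sheath and companion layer genes 2. Krt36, a type I keratin of hard keratinised structures, gave 57.3 in RNA A against 28.8 in RNA B on array 1, then 50.2 against 19.7 on array 2. Its mean log2 ratio was 1.17 ± 0.25 (SD, n = 2 arrays) or 2.25-fold, with a limma adjusted p of 0.091. A second probe, listed for Krt36 alike, gave 21.7 against 10.4 and 15.9 against 8.24, with a mean of 1.01. The third Krt36 probe was at background in all 4 channels.

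Krt35, a neighbour of Krt36, was dim, with 10.6 against 4.80 and 10.0 against 6.92 and a mean ratio of 0.84. That ratio depended on the processing and was 0.21 with normexp and loess and 0.055 in the authors' table. Krt75, the companion layer keratin next to Krt6b, gave 72.1 against 64.4 on array 1 and 139 against 59.4 on array 2. Its ratios of 0.16 and 1.22 were both positive and far apart. The other tested hair keratins, Krt31, Krt33a, Krt34, Krt81, Krt85 and Krt86, had means between -0.11 and 0.55.

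Some probes with a shared name differed in whether they were detected. Of the Krt42 probes, 1 was well above background in all 4 channels, with a mean ratio of 0.04, and the other was at background in all 4. The 3 probes named Krt85 carry the same transcript accession, but no accession listed for them was matched to a gene here. These probes gave mean ratios of -0.06, 0.05 and 0.17. Krt81 gave a mean ratio of -0.07, and the Krt83 probe was at background in all 4 channels.

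The 18 keratins not tested carried no ratio that could be read. None of their signals exceeded 10.8, and 11 of them had all probes at background in every channel. Among the 16 keratin probes of that kind, the red channel was brighter on both arrays for 14, and the median log2 ratio was 1.17 for array 1 and -1.08 for array 2. Krt39, for instance, read 1.99 in red and 0.882 in green on array 1, and 1.92 in red and 0.861 in green on array 2. The floor that the scanner software sets thus lay higher in red than in green, and a ratio of floors turns sign when the dyes are exchanged.

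In the order of the genes along the chromosomes, Krt75, Krt6b, Krt6a and Krt5 follow each other in the type II cluster of chromosome 15, and all had a positive ratio on both arrays. Krt8 and Krt18, the type I keratin that sits beside it outside the type I cluster, close the row and were both negative on both arrays. In the type I cluster on chromosome 11, Krt35 and Krt36 are next to each other with positive ratios. Krt20 lies between Krt12, which was not tested, and Krt23, which was brighter in RNA A, and Krt16 lies between Krt14 and Krt17, both brighter in RNA A on both arrays.

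**Figure D5:**
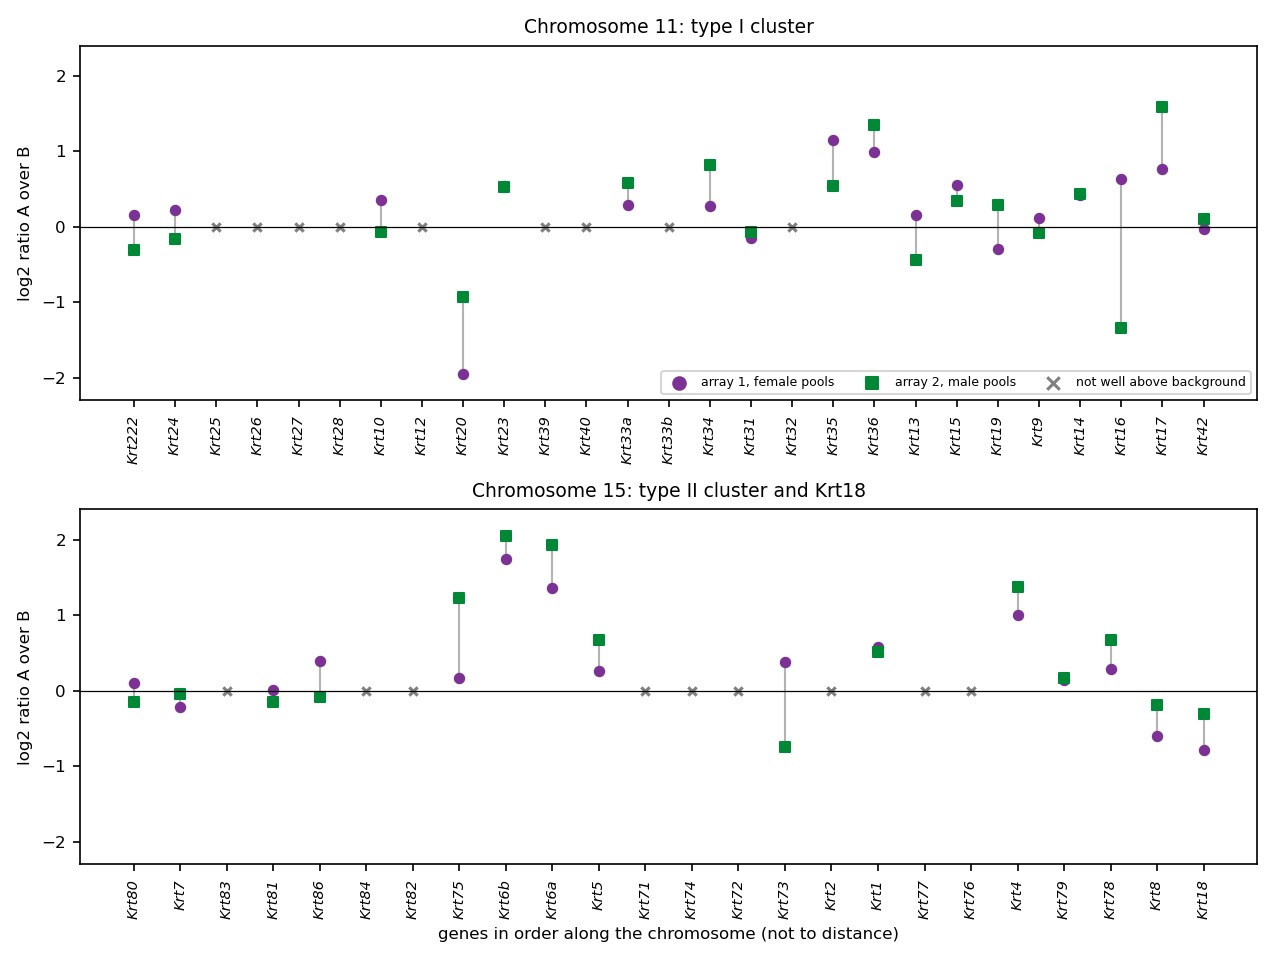
Log2 ratio of RNA A over RNA B (y axis) of the keratins in their order along chromosome 11 and chromosome 15 (x axis, not to distance), for the probe that stands for each gene; circles are array 1, squares array 2, and crosses genes not well above background. Krt85 has no position for its probe and is left out. Krt75 to Krt5 form a run above 0, and Krt20 is the lowest point of both rows.

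Proteins that tie keratin filaments to junctions were measured beside the keratins. Of the 11 desmosomal and linker genes measured, 1 was brighter in RNA A on both arrays, 0 in RNA B, and 10 had opposite signs, with a median log2 ratio of -0.12. Over all genes tested, 61% had opposite signs on the arrays. The exception, Pkp1, the desmosomal plakophilin of stratified epithelia, gave 346 against 306 and 613 against 291, with ratios of 0.18 and 1.08. None of the 11 passed the filter or the limma test (1 in RNA A at an unadjusted p under 0.05). On both arrays 3 of 15 other intermediate filament genes were brighter in RNA A, none was brighter in RNA B, and 12 had opposite signs, next to 21.6%, 17.4% and 61% of all genes tested, with 0 past the filter or the limma test (1 in RNA A at an unadjusted p under 0.05). Vim, the filament of mesenchymal cells, gave 38454 against 36726 and 39030 against 39177.

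Markers of other cell types were checked beside the keratins. On both arrays 3 of the 6 genes of ureteric mesenchyme and smooth muscle were brighter in RNA B, and 3 had opposite signs (median -0.31). Over all genes tested these shares were 17.4% and 61%. The 3 in RNA B were the smooth muscle genes Acta2, Myh11 and Tagln, with mean ratios of -0.56, -0.80 and -0.56. Tbx18, Col1a1 and Vim had mean ratios of 0.01, -0.06 and 0.03. Of the 5 collecting duct genes 4 were tested, and Fxyd4 alone passed the filter, in RNA A, with ratios of 0.77 and 1.56. Scnn1b was brighter in RNA B on both arrays (-0.42 and -0.23), Aqp2 had a mean ratio of 0.12, and Hsd11b2 turned sign. Of the 6 nephron genes 3 were at background in all channels and 2 were tested, of which Slc34a1 was called by limma in RNA B (mean ratio -2.73). Its signals were dim, with 6.2 in RNA A against 30.8 in RNA B on array 1, then 4.2 against 37.2 on array 2. The other, Lrp2, had a mean ratio of -0.35. Of the 4 mesothelial genes Upk3b, also a uroplakin, was called in RNA B (mean ratio -1.69). Msln (-0.64 and 0.10) and Wt1 (-0.51 and 0.08) turned sign between the arrays, and Lrrn4 was not tested. The part of these cell types in the keratin ratios was not tested.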

How the data were processed

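Total RNA of pooled ureters was hybridised on dual-colour 60-mer arrays, and the deposited intensity values came from Agilent Feature Extraction 10.7.3.1, which subtracted background and normalised the dyes. The deposited log10 ratios matched, for 88.9% of spots and to within 0.001, the ratio of the processed signals. The authors also deposited a table of signed fold changes per array, whose values were used only as an alternative and to compare the direction of the ratios. Spots per array numbered 157716. Control spots and outliers were removed, log2 processed signals were averaged per probe, and the probe with the highest mean signal stood for a gene. A probe was tested where 0.5 or more of its spots were well above background on both arrays in the same RNA, A or B. Across all genes, lmFit and eBayes (limma 3.58.1, R 4.3.3) were run, with Benjamini-Hochberg adjustment. Levels on both arrays were compared after Aquantile scaling.

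The share of spots well above background was 80.3% and 80.4% in green and 70.4% in red on each array, with 0 saturated spots. Of 39429 probes, 28328 were named through RefSeq accessions, and the others kept the name in the files. The keratins Krt88 and Krt90 go by other names in the files and were not members.

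The members and lists were chosen with earlier results of these data known. Named in full were the keratins of the urothelium and of stratified epithelia, and any other keratin past the filter, called by limma, or with a mean of at least 1.5-fold while well above background; Krt1, Krt42, Krt73, Krt77, Krt78, Krt81, Krt83, Krt85 and Krt222 were added after their values were seen. The limma and filter steps were also run on simulated ratios with independent noise of the same spread for every gene. The simulation held no dye effect and no floor, so it does not show how often these steps err on the present arrays.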

Additional observations from a re-analysis of the deposited data

Results flagged for a closer look

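Krt16 went in opposite directions on the arrays, with a log2 ratio of RNA A over RNA B of 0.636 on the array of female pools and -1.34 on the array of male pools. This singled it out as a gene whose difference between the RNAs differs between the sexes of the pools. No test of this difference was possible, since each sex has 1 array, and sex and dye cannot be told apart.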

How the results depend on the processing

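The counts of keratins past the 1.5-fold filter (2 in RNA A, 1 in RNA B, 1 in opposite directions) were the same under both background and loess alternatives, median centring, the authors' table, the mean of all probes, the dimmest keratin probe and Krt6b read by its own probe, an alternative chosen after seeing the data. They moved with the thresholds. Without an intensity threshold 5 keratins passed in RNA A and 9 in opposite directions. Asking for well above background rather than a signal of 100, or for a signal of 50 (also chosen after seeing the data), let 5 pass in RNA A. With a signal of 200, 0 passed in RNA A. At 2-fold, 0 passed in RNA B and 0 in opposite directions. With 1 array left out the counts lay between 3 and 5 in RNA A and were 3 in RNA B. Without replicate 1, Krt5, Krt75 and Krt78 joined in RNA A, and Krt16 and Krt73 in RNA B. Without replicate 2, Krt16 joined in RNA A, and Krt8 and Krt18 in RNA B.

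The limma count in RNA A of 2 became 0 with normexp and loess, with the authors' table, without the filter on dim probes and with separate channels. It became 1 with loess on processed signals (Krt6b), and 1 with the mean of all probes, the dimmest probe or the Krt6b probe of its own (Krt6a each time). It was 2 with median centring and with an intensity trend. The mean log2 ratio of Krt6a lay between 1.32 and 1.94 and that of Krt6b between 0.615 and 2.05, and the limma adjusted p reached 1 for each. The mean ratio of Krt19, near 0, turned to -0.018 with normexp and loess, -0.0084 with loess, -0.012 with median centring and -0.0078 in the authors' table. Causes were not tested.

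The ratios already pair the RNAs of each array. Signals near the floor and 2 arrays limit what can be read.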
